A study of Drosophila melanogaster with 3 samples.

Results

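The Rab genes encode small GTPases that sit on the membranes of the cell, each on its own set of compartments. They were taken as the protein-coding genes of Drosophila melanogaster whose symbol is Rab followed by a number or by X and a number, with a letter allowed at the end, outside chromosome 4. This rule gave 30 genes of 13945 protein-coding genes on the same chromosome arms. A Rab protein works as a switch. Exchange factors load it with GTP, GTPase activating proteins return it to the GDP form, and a lipid added by a prenyl transferase anchors it in the membrane. In the GTP form it recruits effectors, such as tethers and motors, which move and fuse vesicles along the secretory and endocytic routes.

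The genes were examined in a chromatin immunoprecipitation sequencing (ChIP-seq) study of Noc (no ocelli), a zinc finger protein with known roles in forming the simple eyes, legs and tracheal tubes of the fly. The 1 group was a transgenic line that stably carries noc fused to GFP at its C terminus, profiled in 3 biological replicates of whole larvae with males and females pooled and precipitated with an antibody against GFP. The labels give an age of 48 days, which is long for a larva, sonicated chromatin in a size range of 200 to 800, and the dm6 assembly. Whole larvae mix all tissues, the labels do not state the promoter or copy number of the fusion, and no untagged larvae were analysed here, so a summit is not by itself proof that Noc binds there.

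The data were lists of peaks, each with 1 summit position and 1 signal value, which the authors computed on a scale that the deposited notes do not state. Each replicate list and the list called on the pooled libraries held 30000 peaks. A list passing the authors' irreproducible discovery rate (IDR) threshold held 7201, which were the pooled peaks of highest signal. Rank 1 is the strongest peak of a list. Read depth is unknown, so strength is given by rank within a list, and Wilson 95% intervals on shares cover counting error only. The pairs of replicate lists, taken at the length of the IDR list, shared 55.5% to 70.8% of summits within 100 bp. The promoter of noc itself held an IDR summit of signal 1080 (rank 559), with replicate ranks of 693, 792 and 305.

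At 16 of the 30 Rab genes an IDR summit stood no more than 500 bp from a transcription start site (TSS), which is 53.3% (interval 36.1% to 69.8%) beside 24.5% of all protein-coding genes. The 16 were Rab1, Rab2, Rab6, Rab19, Rab30 and Rab39 of the Golgi routes, Rab5, Rab7, Rab9, Rab14, Rab21 and Rab32 of the endosomes and lysosomes, Rab8 and Rab11 of the recycling and exocytic routes, Rab40 and RabX1. The strongest was at Rab5, with signal 1120 and rank 520 of the 7201, and most of the others were weak: the median signal of the 16 was 300, against 417 over the 3419 protein-coding genes with such a summit. Among the 3600 IDR peaks of higher signal, 5 Rab genes (16.7%) remained beside 14.9% of all genes. Those 5 were Rab5, Rab8, Rab11, Rab32 and Rab39, and the summits of the other 11 genes lay in the weaker part of the list. With 1 group and no control analysed here, none of these differences has a test.

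Sequence at 6 of the promoter summits, weaker and stronger, is shown from the RefSeq copy of dm6, 5′ to 3′ along the strand of the gene. Each of the 6 holds 1 of the 3 words marked below. The like stretches at Rab1, Rab19 and Rab21 hold none of these 3 words and are not shown. Each stretch is the part of the 151 bp around a summit that lies outside annotated exons. Capitals mark matches on either strand to 3 of the words searched, and matches to other words, such as the open E-box form at Rab14, are left in lower case. The 3 are TATAAA, the word of the TATA box, at Rab5 (where it reads TTTATA), Rab11 and Rab40; GGTCACACT, known as Motif 1, at Rab14 (read on the other strand); and TATCGATA, the DNA replication-related element, at Rab30 and Rab7. The Rab40 match lies more than 50 bp from the summit, so it is not among those counted near summits below. Only the last base of the Rab14 match shown comes within 50 bp of its summit. The match counted near the Rab14 summit below is therefore not the copy shown.
Rab5, 2L:2363656-2363806, minus strand: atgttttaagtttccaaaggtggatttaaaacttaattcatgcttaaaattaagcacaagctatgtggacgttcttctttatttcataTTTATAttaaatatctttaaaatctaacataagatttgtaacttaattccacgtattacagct
Rab11, 3R:21111255-21111405, plus strand: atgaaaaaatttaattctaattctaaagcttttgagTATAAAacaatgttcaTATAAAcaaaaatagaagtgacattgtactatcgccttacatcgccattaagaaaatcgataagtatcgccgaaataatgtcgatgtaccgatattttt
Rab40, X:12463137-12463287, minus strand: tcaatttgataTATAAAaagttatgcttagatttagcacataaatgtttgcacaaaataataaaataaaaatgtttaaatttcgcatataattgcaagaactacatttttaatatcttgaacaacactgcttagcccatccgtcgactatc
Rab14, 2L:14355102-14355144, plus strand: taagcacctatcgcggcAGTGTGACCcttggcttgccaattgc
Rab30, 2L:7032610-7032720, minus strand: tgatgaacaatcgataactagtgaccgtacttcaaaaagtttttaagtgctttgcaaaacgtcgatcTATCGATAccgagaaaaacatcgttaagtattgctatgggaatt
Rab7, 3R:23992941-23993007, plus strand: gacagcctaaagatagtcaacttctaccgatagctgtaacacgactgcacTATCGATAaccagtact
The summit lies inside the stretch at Rab5, Rab11, Rab40 and Rab30, and just downstream of it, in the 5′ UTR, at Rab14 and Rab7. The Rab5, Rab39 and Rab40 summits were AT-rich, with 21.8% G and C each in the 101 bp around the summit, against a median of 40.6% for the 16 Rab summits and 36.6% for the 3303 promoter summits of all genes. The Rab1, Rab2 and Rab19 summits lay at the other end, with 50.5%, 48.5% and 51.5%.

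TATCGATA is the binding word of DREF, a factor of many broadly active genes. It occurred within 50 bp of 2 of 16 Rab summits (12.5%) beside 1.24% of all promoter summits. From 250 bp before to 50 bp after the first TSS, on either strand, it occurred in 11 of 30 Rab promoters (36.7%) beside 9.36% of all promoters. The 11 were Rab2, Rab6, Rab7, Rab8, Rab14, Rab19, Rab30, Rab40 and, without an IDR promoter summit, Rab27, Rab35 and RabX6. Of these 11, 8 had an IDR promoter summit (72.7%, interval 43.4% to 90.3%) beside 33.6% of all genes with the word. Of the 19 Rab genes without it 8 had one (42.1%, interval 23.1% to 63.7%) beside 23.6%. The 2 intervals overlap, and the difference was not tested. The GATA words AGATAA and TGATAA occurred near 0 of 16 Rab summits, which allows a share of up to 18.8% (3 counts), beside 8.45% and 10.6% of all promoter summits. In the promoters they occurred at 7 of 30 Rab genes (23.3% beside 18.7%) and at 11 of 30 (36.7% beside 22.7%). The homeodomain word TAATTA occurred near the Rab8 and Rab21 summits (12.5% beside 9.42%) and in 16.7% of Rab promoters beside 20.4% of all. TATAAA occurred near the summits of Rab5, Rab11 and Rab32 (18.8% beside 19.1%) and in 26.7% of Rab promoters beside 45.8%. GGTCACACT occurred near 1 Rab summit, that of Rab14, and in 3.33% of Rab promoters beside 6.05%. A match says only that the letters are there.

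Features of gene structure moved with the calls, and their part in the result was not tested. Among genes with 1 annotated TSS, 8 of 21 Rab genes had an IDR promoter summit (38.1%, interval 20.8% to 59.1%) beside 18.0% of all 10246 such genes. Among genes with several, 8 of 9 had one (88.9%, interval 56.5% to 98%) beside 42.6% of 3699. A coding neighbour reading away from the gene, with its TSS within 1000 bp, was present at 18 of 30 Rab genes and 5052 of all 13945 genes. Of the 18, 11 had a summit (61.1%, interval 38.6% to 79.7%) beside 37.4% of all genes so placed. Of the 12 without such a neighbour, 5 had a summit (41.7%, interval 19.3% to 68%) beside 17.2%. The share of Rab genes was above that of all genes in each of these 4 divisions. They split the same genes by TSS number and again by neighbour, so they are not separate results. Whether gene structure accounts for the difference was not tested.

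**Figure D1:**
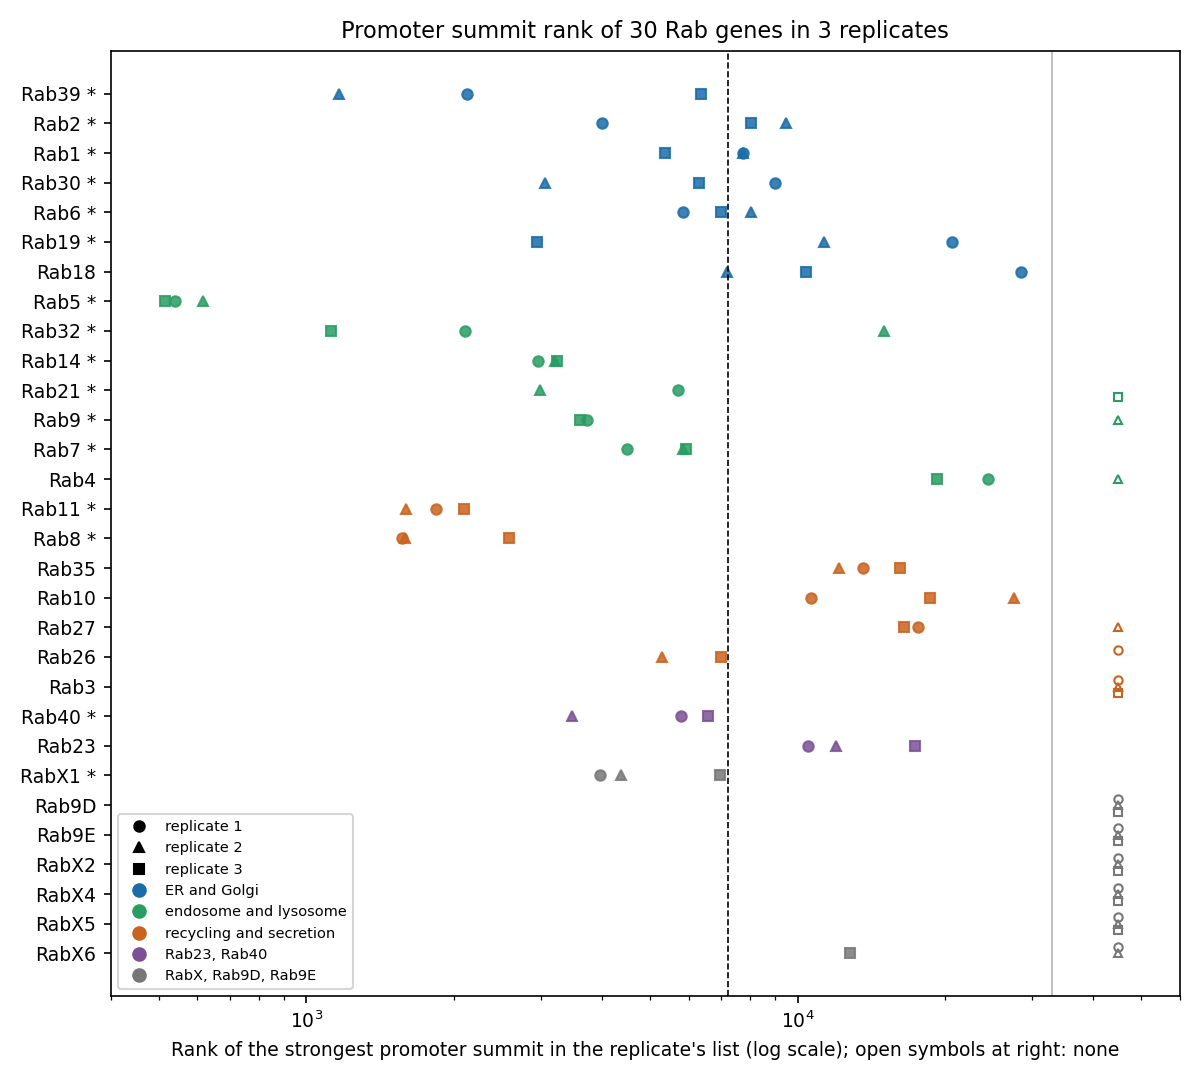
Rank of the strongest summit within 500 bp of a TSS (x axis, log scale, 1 is strongest) for each of the 30 Rab genes (y axis) in replicates 1, 2 and 3, coloured by role. Open symbols at the right mark replicates without one, the asterisk marks the 16 genes with an IDR promoter summit, and the dashed line marks rank 7201. Rab5 lies at 515 to 617 in the 3 replicates, while 6 genes have no promoter summit in any of them.

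The ranks below are those of the strongest promoter summit in each replicate. This need not be the match of the IDR summit, and was another one at Rab7 in replicates 1 and 3, Rab11 in replicate 3, and Rab19 and Rab30 in replicate 1.

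Of the Rab genes of the endosomes and lysosomes, 6 of 7 had an IDR promoter summit (85.7%, interval 48.7% to 97.4%) beside 24.5% of all genes. In replicate lists 1, 2 and 3 at the length of the IDR list it was 6, 4 and 5 of 7, beside 25.4%, 23.3% and 24.7%. At Rab5, the GTPase of early endosome fusion, the strongest promoter summit ranked 539, 617 and 515 in replicates 1, 2 and 3 (557 ± 53.3, SD, n = 3). These ranks lay close together, and the summit, at position 2363731 of 2L, was in an intron of the longer Rab5 transcripts, 227 bp before an internal TSS. Its signal was above that of 88.8% of the genes with an IDR promoter summit. Rab14, of endosomes and phagosomes, ranked 2956, 3209 and 3240 (3140 ± 156), with the IDR summit 32 bp into the gene and signal 362. Its replicates were nearly level. A further and stronger summit lay in an intron 618 bp into Rab14, with signal 788 (IDR rank 1011) and replicate ranks of 1513, 735 and 1360.

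Rab7, the GTPase of late endosomes and lysosomes, ranked 4500, 5836 and 5917 (5420 ± 796) with signal 259. Its promoter was reached in all 3 replicates, but the IDR summit 8 bp into the gene had a replicate summit within 100 bp in replicate 2 only, the others lying elsewhere near its 3 TSSs. Rab9, which in mammals returns cargo from late endosomes to the Golgi, ranked 3722 in replicate 1 and 3608 in replicate 3 and had no promoter summit in replicate 2. The 2 intronic IDR summits of Rab9 were stronger than the one at its promoter (291), with signals of 737 at 936 bp and 430 at 1868 bp into the gene, and both were matched in the 3 replicates. Rab21, an endosomal GTPase, ranked 5708 and 2990 in replicates 1 and 2, with none in replicate 3. Its summit lay 5 bp before the TSS with signal 305.

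Rab32, which in flies is needed for the pigment granules of the eye, ranked 2102, 15012 and 1124 (6080 ± 7750). Replicate 2 stood far from the others. The IDR summit had signal 523 and lay 28 bp into the gene. A stronger summit beyond the 3′ end of Rab32, with signal 1090 (rank 548) and replicate ranks of 762, 220 and 1791, lay 209 bp before the TSS of Rme-8, a gene of endosomal sorting. Rab4, of fast endosomal recycling, was the 1 gene of the 7 without an IDR promoter summit. It ranked 24428 and 19221 in replicates 1 and 3, and replicate 2 had none.

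Of the Rab genes of the endoplasmic reticulum and Golgi, 6 of 7 had an IDR promoter summit, and 5 of these were in the weaker part of the list. In replicate lists 1, 2 and 3 at the length of the IDR list it was 3, 3 and 5 of 7, beside 25.4%, 23.3% and 24.7% of all genes. Rab1, which acts between the endoplasmic reticulum and the Golgi, ranked 7731, 7761 and 5375 (6960 ± 1370) with signal 254. Rab2, of the Golgi and of fusion with lysosomes, ranked 3992, 9487 and 8054 (7180 ± 2850) with signal 297. Rab6, of transport through the Golgi, ranked 5841, 8046 and 6973 (6950 ± 1100) with signal 243. The summits of these 3 genes lay 23, 19 and 66 bp into the gene, in the 5′ UTR, and each had at least 1 replicate rank beyond 7201, the length of the IDR list.

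Rab39, in mammals linked to the Golgi and autophagy, ranked 2121, 1163 and 6359 (3210 ± 2770), with replicate 3 apart from the others. Its summit of signal 528 lay 328 bp before the Rab39 TSS and 56 bp inside its neighbour Pdp, so the lists cannot assign it to 1 of the 2 genes. Rab30, a Golgi GTPase, ranked 9005, 3065 and 6296 (6120 ± 2970), and its summit of signal 251 was nearer to the TSS of Caper, at 36 bp, than to that of Rab30, at 79 bp. Rab19 ranked 20668, 11331 and 2944 (11600 ± 8870), far apart in the 3 replicates. Its weak summit (242) lay 396 bp into the gene, in a coding exon. Rab18, found on lipid droplets and the endoplasmic reticulum, had promoter summits of rank 28488, 7198 and 10381 and no IDR promoter summit. The IDR summit in its flank, with signal 372, lay 25 bp before the TSS of the ribosomal protein gene RpL35.

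Of the 7 Rab genes of recycling and secretion, Rab8 and Rab11 had an IDR promoter summit (28.6% beside 24.5% of all genes). In replicate lists 1, 2 and 3 at the length of the IDR list, 2, 3 and 3 of the 7 had a promoter summit, beside 25.4%, 23.3% and 24.7%. Rab11, the GTPase of the recycling endosome, ranked 1835, 1593 and 2097 (1840 ± 252), and its IDR summit of signal 587 lay 78 bp before the TSS at position 21111330 of 3R. In replicate 3 the rank of 2097 belongs to another summit, 206 bp before the TSS, and the match of the IDR summit ranked 3746. Rab8, of exocytosis to the cell surface, ranked 1562, 1590 and 2587 (1910 ± 584), with signal 552 and a summit 47 bp into the gene. After that of Rab5, these were the IDR promoter summits of highest signal among the Rab genes. A further intronic summit of Rab11, 1875 bp into the gene with signal 682, was stronger than that at its promoter, with ranks 1719 and 813 in replicates 1 and 3 and no match in replicate 2.

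The other 5 genes of that set had weaker promoter summits or none. Rab10, which in flies directs basement membrane secretion, ranked 10627, 27621 and 18590. Rab35, of endosomal recycling and actin, ranked 13584, 12152 and 16162 and had 1 IDR summit, of signal 270, in its 5′ UTR 601 bp into the gene. Rab27, of regulated secretion, ranked 17561 and 16479 in replicates 1 and 3, with none in replicate 2. Rab26, of secretory vesicles, ranked 5285 and 6988 in replicates 2 and 3, with none in replicate 1 and none in the pooled list. Rab3, the synaptic vesicle GTPase, had no promoter summit in any of the 3 replicates, and 1 summit elsewhere in replicates 1 and 3.

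Rab40, a Rab protein with a SOCS box, ranked 5800, 3471 and 6568 (5280 ± 1610), with an IDR summit of signal 303 at 100 bp before the TSS. Rab23, known from planar cell polarity, ranked 10503, 11967 and 17365 without an IDR summit, next to the start of plx, which encodes a protein with a Rab GTPase activating domain. RabX1 ranked 3961, 4374 and 6961 (5100 ± 1630). Its IDR summit of signal 292 was nearer to the TSS of mi, at 85 bp, than to that of RabX1, at 158 bp.

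Of the 7 RabX, Rab9D and Rab9E genes, RabX1 alone had an IDR promoter summit (14.3%, interval 2.57% to 51.3%) beside 24.5% of all genes. In the gene or 2 kb to each side, 3 of the 7 had an IDR summit (42.9%) beside 42.1% of all genes. RabX6 had a promoter summit in replicate 3 alone (rank 12793), and RabX4 had 1 summit, away from its promoter, in replicate 2. RabX5 and Rab9D had 1 IDR summit each in the flank. That of RabX5, with signal 607, lay 65 bp before the TSS of RpL23A, and that of Rab9D, with signal 395 and replicate ranks of 3859, 2445 and 4035, lay 1419 bp before its own TSS. No list held a summit for RabX2 or Rab9E in the gene or 2 kb to each side. Repeated sequence moved with part of this: within 500 bp of the TSS, 45.7% of 50-base words were unique in the assembly at Rab9E, 58.6% at Rab9D and 79.4% at RabX2, against 100% at the other 27 genes. Its part in the missing summits was not tested.

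**Figure D2:**
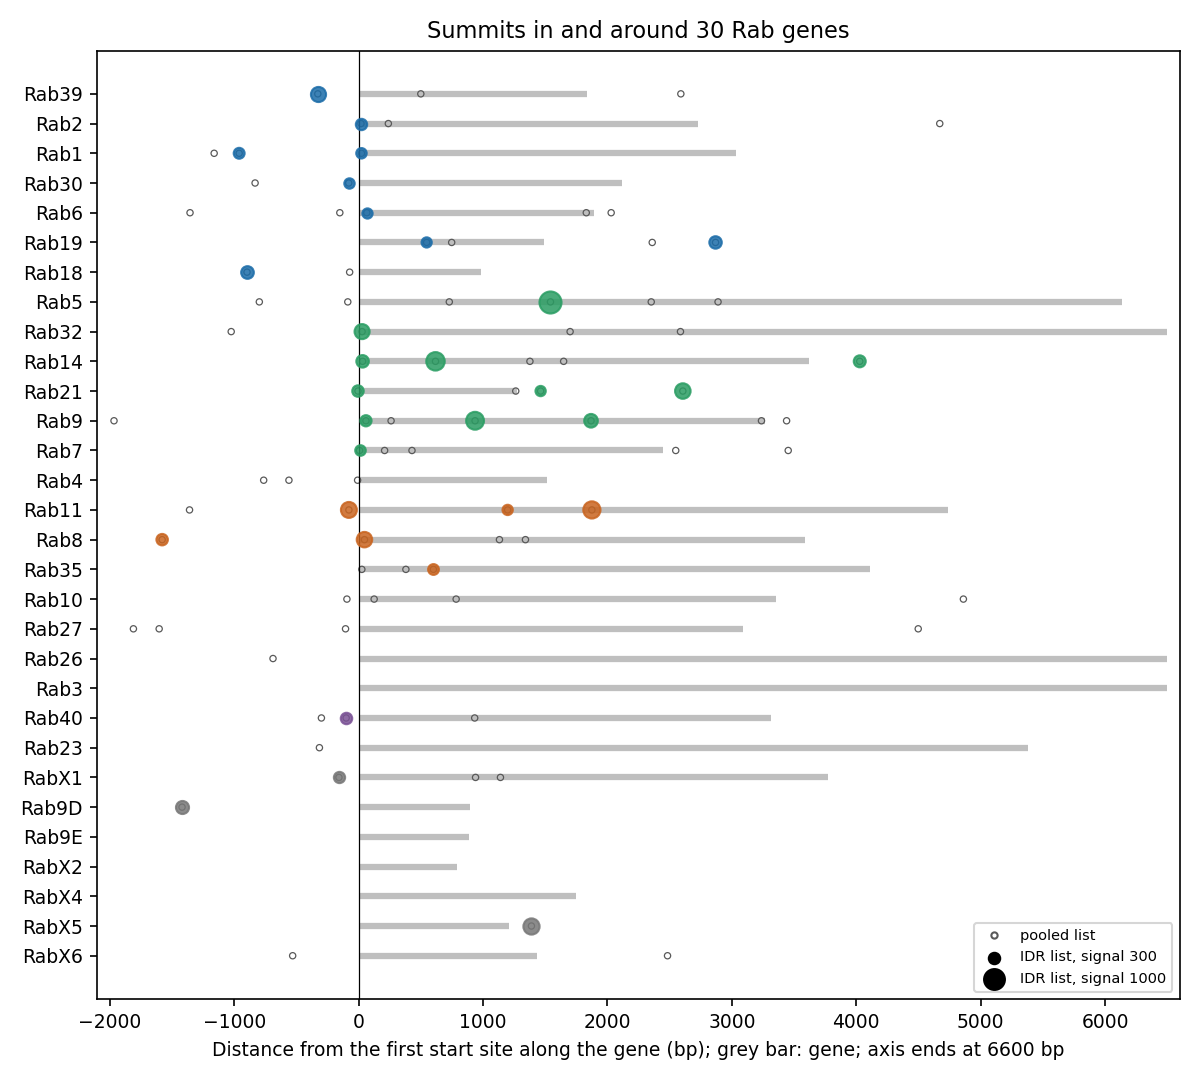
Summits in the 30 Rab genes and 2 kb to each side, by distance in bp from the first TSS along the gene (x axis), with genes as grey bars. Filled circles are IDR summits with area in proportion to signal and open circles are pooled summits. Positions past the right edge, at Rab5 (pooled list) and Rab32, are not drawn, and the largest circles lie inside Rab5, Rab14 and Rab9.

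Within the gene and 2 kb to each side, 20 of 30 Rab genes had an IDR summit (66.7%, interval 48.8% to 80.8%) beside 42.1% of all genes. In the pooled list, 22 of 30 had a promoter summit (73.3%) beside 45.4%. Over their summed spans, the Rab genes with their flanks held 1.48 IDR summits per 10 kb beside 0.783 for all genes. The longest genes weigh most in such a sum, and the median span was 6.88 kb beside 6.17 kb. The 33 IDR summits at Rab genes were all distinct, with 16 at promoters and 17 elsewhere. Of the 17, 10 were nearest to the TSS of another gene, among them Arl5, a small GTPase of the Golgi, near Rab19, and AP-2sigma, an adaptor subunit of endocytosis, near Rab1. Among the 17 away from promoters, those of highest signal inside a Rab gene were the intronic ones of Rab14, Rab9 and Rab11.

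The Rab promoter summits lay at a median of 13 bp downstream of the TSS, against 122 bp upstream for all genes with one (median -122). Of the 16, 7 lay upstream (43.8% beside 73.3%) and 12 within 100 bp of the TSS (75% beside 33.1%), and 9 fell in a 5′ UTR. The exceptions beyond 100 bp were Rab5, Rab39 and RabX1 upstream and Rab19 downstream. A position near the TSS was not particular to Rab genes among the gene lists described below. The share within 100 bp was 66.7% for vacuolar ATPase genes (median 21 bp) and for Arf and Arl genes (median -25 bp). It was 66.7% for prenylation and recycling, 62.5% for exchange factors, 33.3% for effectors and a kinase and 12.5% for GTPase activating proteins.

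**Figure D3:**
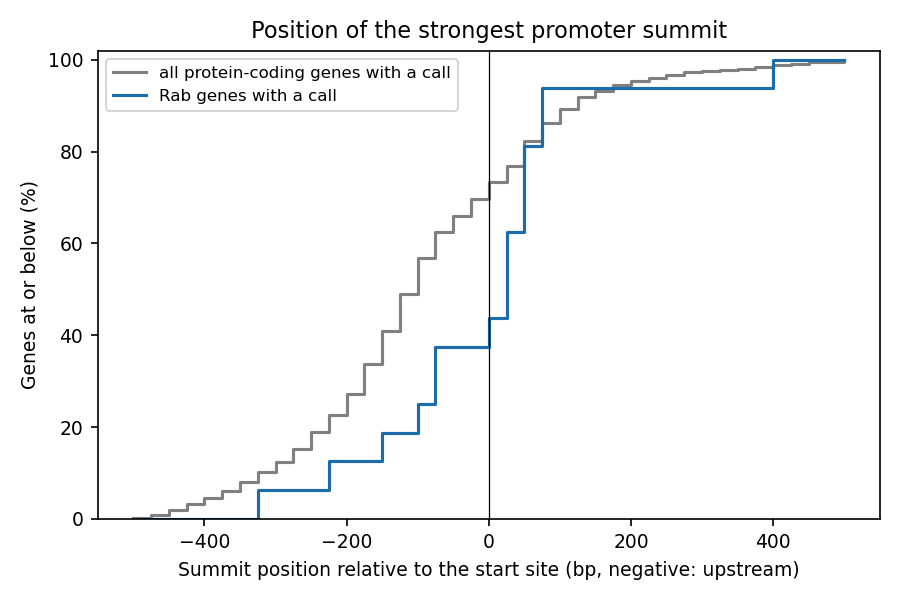
Cumulative share of genes (y axis, percent) by position of the strongest IDR promoter summit relative to the TSS (x axis, bp, negative upstream), for the 16 Rab genes and the 3419 protein-coding genes. The Rab line stays below that of all genes upstream of the TSS, where 43.8% of Rab genes and 73.3% of all genes have their summit.

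In each replicate's own list at the length of the IDR list, 13, 12 and 15 of 30 Rab genes had a promoter summit (44.4% ± 5.09, SD, n = 3) beside 25.4%, 23.3% and 24.7% of all genes. The counting intervals of the 3 shares were 27.4% to 60.8%, 24.6% to 57.7% and 33.2% to 66.8%. The SD is over lists of the same 30 genes and does not measure this counting error. Promoter summits in all 3 lists of that length were found for 8 of the 16 genes with an IDR promoter summit (50%) beside 65.3% of all such genes. In the whole lists it was 14 of 16 (87.5%) beside 90.1%. Requiring the summit itself to lie within 100 bp in all 3 shortened lists left 7 genes (23.3%) beside 13.8%: Rab5, Rab8, Rab11, Rab14, Rab39, Rab40 and RabX1. Requiring it in only the other 2 replicates left 8, 10 and 8 genes without replicate 1, 2 and 3, beside 14.8%, 18.6% and 16.2% of all genes. Over the 14 genes ranked in all 3 replicates, the weakest rank was a median of 1.71 times the strongest, beside 2.05 for the 3080 such genes among all, and the ratio reached 13.4 at Rab32.

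**Figure D4:**
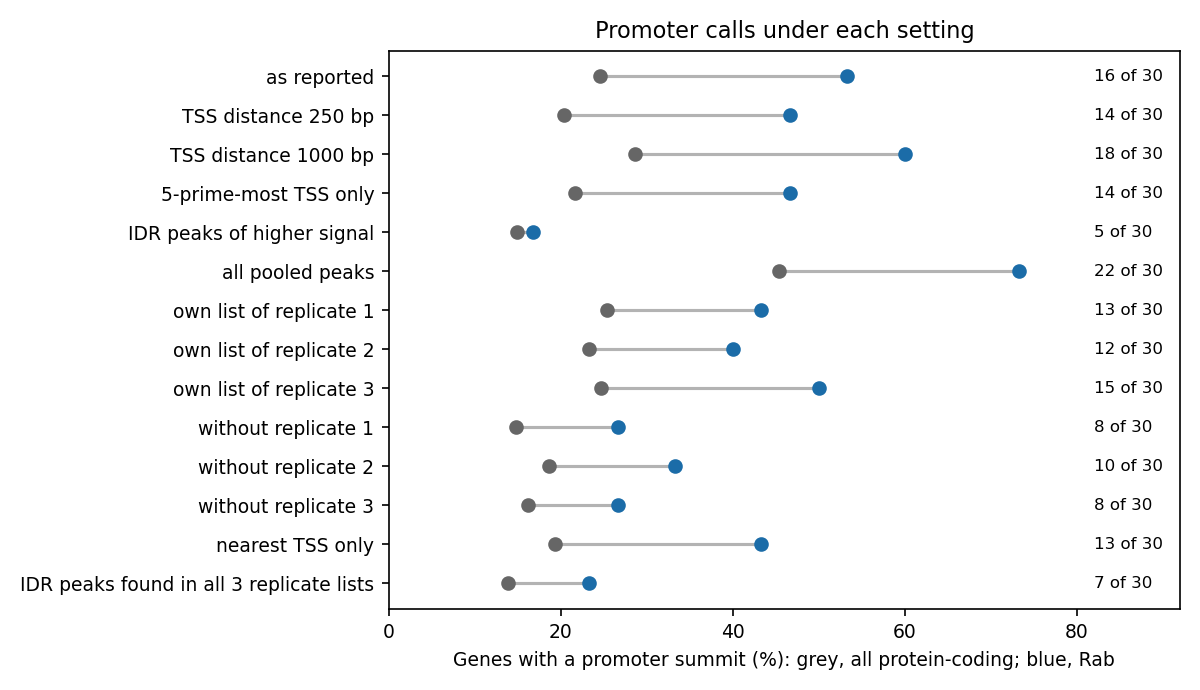
Share of genes with a promoter summit (x axis, percent) under each setting (y axis), for all protein-coding genes in grey and Rab genes in blue, with the Rab count at the right. The share of Rab genes is above that of all genes in each row, by least for the IDR peaks of higher signal, at 16.7% and 14.9%.

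The machinery that acts on Rab proteins was counted by the same rule. Of genes for prenylation and recycling of Rab proteins 3 of 5 had an IDR promoter summit: Rep, the escort protein, with signal 566, RabGGTb with 302 and qm with 296. Of exchange factors 8 of 23 had one (34.8%), strongest at Mon1, part of the exchange factor for Rab7, with 1230, then gry with 693, SIDL with 547 and pcs with 374. Of GTPase activating proteins 8 of 20 had one (40%), strongest at Rab3GAP1 with 764, GAPcenA with 663, TBC1d7 with 632 and sky, which acts at the synapse, with 589. Of effectors and a kinase 12 of 33 had one (36.4%), strongest at Vps33B with 1480, Rbsn-5, a Rab5 effector, with 1120, didum, the fly myosin V, with 836, and GCC185 with 701. These shares stand beside the 24.5% of all genes, and the genes named are those of highest signal in each list.

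Arf and Arl genes, which encode other small GTPases of membrane traffic, and the vacuolar ATPase gave a comparison. Of Arf and Arl genes 6 of 10 had an IDR promoter summit (60%), with signal 2010 at Arl1 and 519 at Arl8. Of vacuolar ATPase genes 12 of 33 had one (36.4%), with 1410 at Vha100-2 and 509 at Vha13. The share of Rab genes, 53.3%, lay between these values, and no difference between the lists was tested.

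**Figure D5:**
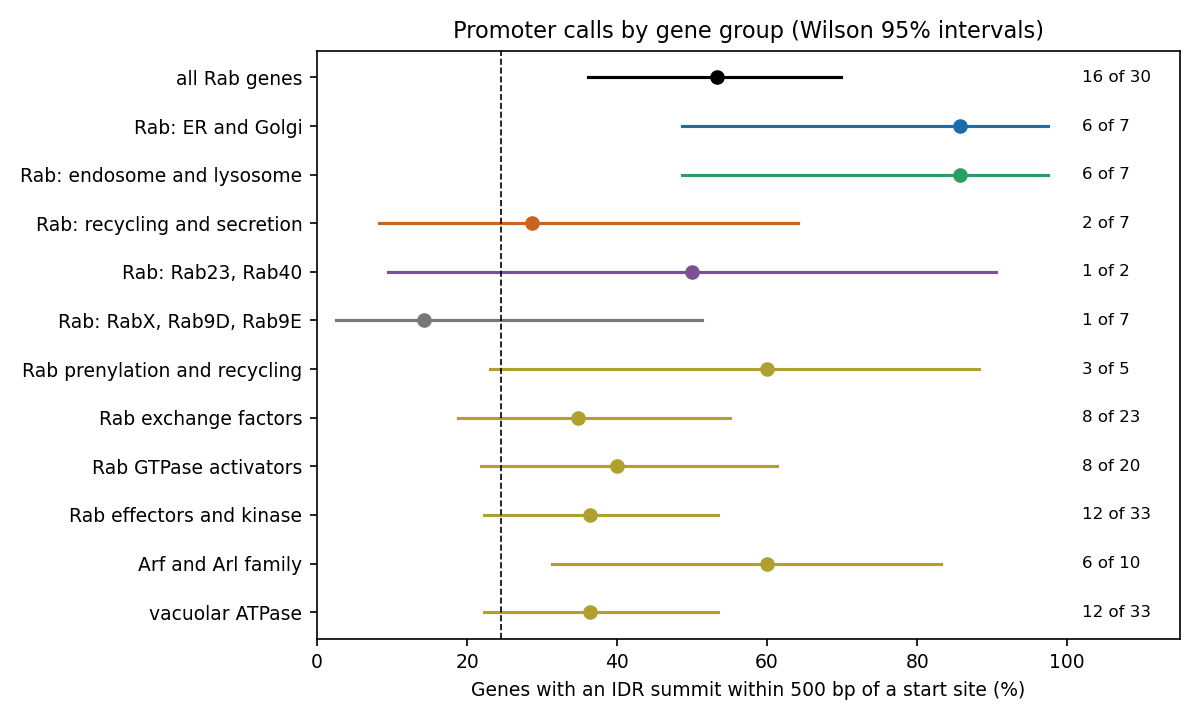
Share of genes with an IDR summit within 500 bp of a TSS (x axis, percent) for the Rab genes, their groups by role, the machinery lists and the comparison lists (y axis), with counts at the right. Bars are Wilson 95% intervals and the dashed line is the 24.5% of all protein-coding genes. The Golgi and endosome groups stand at 6 of 7 each, and the RabX, Rab9D and Rab9E group at 1 of 7.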

How the data were processed

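Peak lists of 3 biological replicates of 1 group were used. According to the deposited text notes, the authors called each replicate list on 1 library and a control alignment and the pooled list on the 3 libraries together, and derived the IDR list from those 4. The aligner and peak caller are not named in these notes or labels. The signal value is the authors' deposited score per peak, on a scale not given, and it was used only within a list. Summits are the deposited offset added to the peak start.

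Genes and TSSs came from Ensembl release 115 on dm6, and sequence from RefSeq. All positions are 1-based. A gene was counted when a summit lay within 500 bp of a TSS, or in the gene and 2 kb to each side. Replicate lists were taken whole and at the length of the IDR list, and summits matched within 100 bp. Either strand was searched, out to 50 bp from summits and in promoters, for the words given in the report and for these others. The E-box was searched as CACGTG, in the longer form TCACGTGA that holds it, and in the open form CANNTG that covers both. The binding word of GAGA factor was taken as GAGAG, that of AP-1 proteins as TGACTCA, the cyclic AMP element as TGACGTCA, the box bound by Sp family proteins as GGGCGG, the simple repeat as CACACA, and the initiator element as TCAGT. The results of these 9 words beside all promoter summits are given in the closing section. No test was run because the study has 1 group and no control analysed here. The counting steps were tested on simulated data. The software was numpy 2.4.6 and pandas 2.3.3 in Python 3.11.15, with scipy 1.17.1 for intervals and matplotlib 3.10.9 for figures.

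The members, gene lists and words were chosen with earlier results of these data known. All Rab genes are named by class, with up to 4 members of each machinery list and 2 of each comparison list by promoter signal, noc, and genes whose TSS is nearer to a Rab promoter summit. Neighbours of the flanking summits (Rme-8, RpL35, RpL23A, Arl5 and AP-2sigma) and plx were named after their values were seen. List names were looked up by current symbol or synonym, unmatched names were left out, and Arl6IP1, which is not an Arl GTPase, was dropped after the data were seen. A further comparison list is not reported here. SIDL shares its summit with CG12241. The groups by role are a coarse division, since many Rab proteins act on several compartments.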

Additional observations from a re-analysis of the deposited data

How the results depend on the processing

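The count of 16 Rab genes with a promoter summit fell to 5 with the IDR peaks of higher signal. It fell to 8 to 10 when summits had to be matched in the other 2 replicates (shares of all genes given above). With a match within 250 bp it was 9, 11 and 9 without replicate 1, 2 and 3, beside 16.3%, 19.9% and 17.7% of all genes. With matches in all 3 replicates, an alternative chosen after the data were seen, it was 7 (23.3% beside 13.8%). It stayed within 1.5 times of 16 with TSS distances of 250 bp (14, 46.7% beside 20.4%) and 1000 bp (18, 60.0% beside 28.6%). The same held with the first TSS alone (14, 46.7% beside 21.7%) and each summit given to its nearest TSS (13, 43.3% beside 19.3%). It also held with the pooled list (22, 73.3% beside 45.4%) and the replicate lists (12 to 15, shares given above). With the 3 further Rab9 array genes counted as members, also added later, it was 16 (48.5% beside 24.5%). The count of 20 genes with a summit in the gene or flank was 12 with no flank and 11 with the peaks of higher signal, and 14 to 17 with a replicate left out. With whole replicate lists the promoter counts rose from 13, 12 and 15 to 22, 20 and 23 (73.3%, 66.7% and 76.7%, beside 48.5%, 42.9% and 48.4%). A replicate left out in this way still contributed to the pooled call, which makes these sets subsets of the IDR list. Rab8 and Rab11 kept their promoter summit in 11 of 11 settings, and Rab5, Rab14, Rab39, Rab40 and RabX1 in 10. These 11 do not include the setting of the nearest TSS. Under it Rab39 and RabX1 lose their summits, which lie nearer to Pdp and mi. Rab19 kept it in 2. The cause of these shifts was not tested, beyond the lists being shorter or longer by construction. No paired analysis was possible because the study has 1 group. Read depth and the level in untagged larvae are unknown, and both limit what a weak summit shows.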

Other observations

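The remaining words near the 16 Rab promoter summits were as follows, beside the share of all promoter summits. The open E-box form CANNTG occurred near 4 (Rab6, Rab9, Rab14 and Rab39; 25% beside 35.5%). The initiator word TCAGT occurred near 4 (Rab1, Rab7, Rab14 and Rab32; 25% beside 19.8%), and GAGAG near 2 (Rab7 and Rab19; 12.5% beside 12.7%). The closed E-box CACGTG (0.939% of all), its longer form (0.0606%), the AP-1 word (0.696%), the cyclic AMP element (0.272%), GGGCGG (2.03%) and the CACACA repeat (7.81%) occurred near 0 of the 16, which allows up to 18.8%.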
